A study of Mus musculus with 6 samples.

Results

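Il9, the gene of the cytokine interleukin-9 (IL-9), and Il9r, the gene of the receptor chain that binds it, were followed across 6 libraries of lung group 2 innate lymphoid cells (ILC2s). The pair was taken by gene symbol and makes up 2 of the 21825 genes in the deposited table. Il9 was chosen by its higher measured level with TNFa than with PBS in these libraries, and Il9r because it is the receptor for it, with those results in view, so the TNFa against PBS values of both genes are a description and carry no p-value.

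The ILC2s had been sorted from lungs of 6-week-old BALB/c mice that had all received 3 injections of 1 µg IL-33 into the peritoneum. All cultures ran for 48 hours with 10 ng/mL IL-2 and 10 ng/mL IL-7. The PBS group (3 libraries, replicates 1 to 3) received vehicle, and the TNFa group (3 libraries, replicates 4 to 6) received 40 ng/mL TNFa. No culture was free of IL-2 and IL-7 and no mouse went without IL-33, so the PBS libraries stand for cells already activated in both ways. The labels do not say whether libraries came from separate mice or cultures, and p-values measure only the spread between these libraries. One PBS label, replicate 2, is marked as a repeat.

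IL-9 is a small secreted cytokine made by ILC2s, by some helper T cells and by mast cells. It acts on cells that carry IL-9R together with the common gamma chain encoded by Il2rg. The kinases JAK1 and JAK3 sit on these chains and switch on factors such as STAT3 and STAT5. In the lung, ILC2s both release IL-9 and respond to it, and the cytokine is known for prolonging ILC2 survival and for acting on mast cells.

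Both genes lie on the minus strand and overlap no other annotated gene. Il9 occupies chr13:56479277-56482246 (mm10) and has 1 annotated transcript of 536 bases in 5 exons. Il9r occupies chr11:32187541-32200279 (mm10) and has 5 annotated transcripts of 605 to 4482 bases, the longest with 9 exons. The table lists whole-number counts for Il9 and values that are not whole for Il9r.

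The 250 bases before each RefSeq start (GRCm38.p6, which is mm10) are shown as a description of sequence. Among the motifs searched is the spacing of sites bound by NF-kB, a factor to which TNFa signals. Capitals mark matches to any of 6 motifs searched on both strands. The first is GGG followed, after any 5 bases, by CC, which is the spacing of an NF-kB site. The motif searched for AP-1 factors is TGANTCA, and that for the core of a PU.1 site is GAGGAA. For GATA factors it is GATAAG, and for STAT factors TTCNNNGAA. The sixth, the TATA box, is written TATAAA. The windows are chr13:56482258-56482507 and chr11:32200280-32200529, both read on the minus strand, 5′ to 3′.
Il9 promoter: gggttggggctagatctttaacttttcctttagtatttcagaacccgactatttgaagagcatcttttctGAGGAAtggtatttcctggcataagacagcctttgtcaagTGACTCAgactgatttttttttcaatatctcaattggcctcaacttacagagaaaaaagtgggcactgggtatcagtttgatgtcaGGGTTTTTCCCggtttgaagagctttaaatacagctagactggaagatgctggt
Il9r promoter: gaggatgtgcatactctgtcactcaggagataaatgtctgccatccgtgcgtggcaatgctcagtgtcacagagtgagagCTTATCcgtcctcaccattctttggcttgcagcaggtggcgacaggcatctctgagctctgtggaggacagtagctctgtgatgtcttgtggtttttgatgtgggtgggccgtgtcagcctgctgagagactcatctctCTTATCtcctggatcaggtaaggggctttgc

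The Il9 window held the NF-kB spacing on both strands in overlapping positions, GGGTTTTTCC from 54 to 45 bases before the start and its neighbour from 53 to 44. That motif is found in 45.8% of 32817 mouse promoter windows of the same length. A TGANTCA match (TGACTCA) lay from 140 to 134 bases before the start, a motif held by 6.75% of windows, and a GAGGAA match from 180 to 175, held by 23.3%. TTTCC, the core bound by NFAT factors and left in lower case except where it overlaps the first motif, occurred 3 times in the Il9 window and in 55.6% of all windows. The Il9r window held none of these 4 motifs. It held GATAAG on the opposite strand at 170 to 165 and at 31 to 26 bases before the start, a motif found in 6.55% of windows. GATAAG was not found in the Il9 window, and neither window held TTCNNNGAA (7.01% of windows) or TATAAA (12.4%). These matches describe letters only, and no binding was measured. A link between them and the level of either gene was not tested.

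Il9 was higher with TNFa in every library. In CPM, counts scaled to library size by the TMM method, its level was 24.1, 22.7 and 28.8 in PBS replicates 1, 2 and 3, and 128, 121 and 122 in TNFa replicates 4, 5 and 6. The groups stood far apart, and the 3 TNFa libraries lay within a narrow band. The means were 25.2 ± 3.23 CPM with PBS and 124 ± 4.09 CPM with TNFa (SD, n = 3 each), a log2 fold change of 2.29 ± 0.13 (SE). The counts behind these levels ran from 666 to 911 with PBS and from 3228 to 4030 with TNFa. At the smallest, 666, an exact Poisson 95% interval spans 616 to 719; such intervals cover counting error only.

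Il9r was lower with TNFa in every library. Its level was 87.7, 98.0 and 101 CPM in PBS replicates 1 to 3 and 57.3, 61.6 and 64.9 CPM in TNFa replicates 4 to 6. The lowest PBS library stood above the highest TNFa library. The means were 95.7 ± 7.10 and 61.3 ± 3.77 CPM (SD, n = 3 each), a log2 fold change of -0.64 ± 0.12 (SE), or a ratio of TNFa to PBS of 0.641. Counts were 2573 to 3200 with PBS and 1451 to 2144 with TNFa. In RNA from whole cultures, fewer cells carrying a transcript and less of it per cell cannot be told apart, and this holds for both genes.

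**Figure D1:**
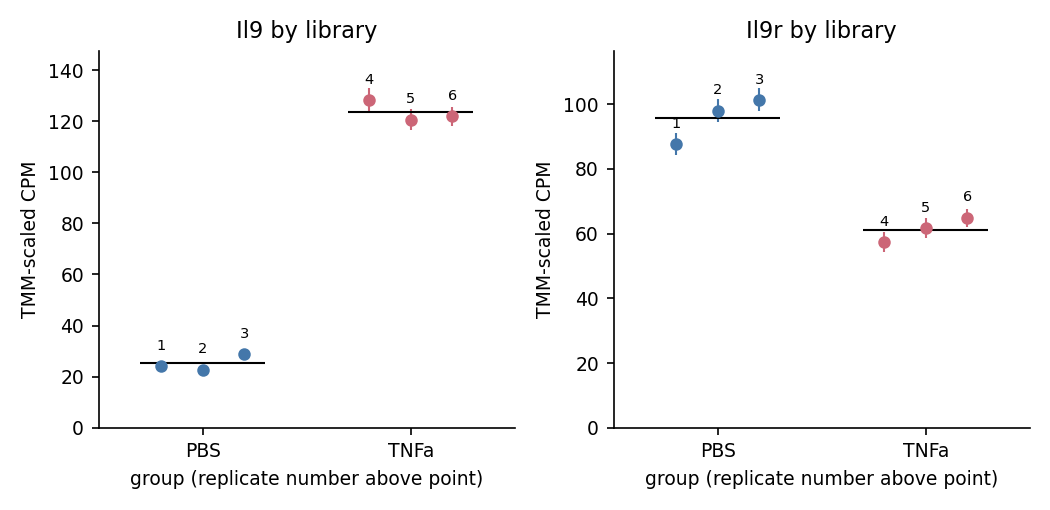
TMM-scaled CPM of Il9 (left) and Il9r (right) in each of the 3 PBS and 3 TNFa libraries, with exact Poisson 95% counting intervals as bars, replicate numbers above the points and group means as lines. Il9 lies between 22.7 and 28.8 with PBS and between 121 and 128 with TNFa, and Il9r between 87.7 and 101 with PBS and between 57.3 and 64.9 with TNFa.

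Of 15719 genes tested across the whole table, 15.2% had no overlap between the groups in either direction, 6.85% higher and 8.35% lower with TNFa. Both Il9 and Il9r were among them, but this contrast helped choose them, and nothing is read from that. The median log2 fold change of all tested genes was 0. Within groups the deviations were small: on the log2 scale Il9 departed from its group mean by -0.15 to 0.20 among PBS libraries and by -0.03 to 0.05 among TNFa libraries, and Il9r by -0.12 to 0.09 and by -0.09 to 0.08. TNFa replicate 5, the lowest of the 6 libraries for 29.3% of all tested genes, was in the middle of its group for Il9r and the lowest of it for Il9, at 121 against 122 CPM in replicate 6. Leaving it out gave log2 fold changes of 2.31 for Il9 and -0.65 for Il9r.

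The count of Il9 divided by that of Il9r in the same library needs no scaling between libraries. This ratio was 0.275, 0.231 and 0.285 in the PBS libraries and 2.24, 1.96 and 1.88 in the TNFa libraries. Il9r was thus the more counted of the pair in every PBS library and Il9 in every TNFa library. The mean ratios were 0.264 ± 0.0285 and 2.02 ± 0.188 (SD, n = 3 each), 7.68 times apart. Per length of the longest transcript, Il9 was the more abundant in both groups, with ratios of 1.93 to 2.38 with PBS and 15.7 to 18.7 with TNFa. When the mean length of the annotated transcripts was used for each gene instead, the ratios were 0.965 to 1.19 and 7.84 to 9.34, so with PBS the order of the pair depends on which Il9r transcript is assumed.

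Beside the other cytokine genes, Il9 had a middle level with PBS and a high one with TNFa. In CPM per kilobase of the longest transcript, Il9 stood at 47.0 ± 6.03 with PBS and 231 ± 7.62 with TNFa (SD, n = 3 each). With PBS it was the seventh of 12 tested cytokine genes, after Il5 (2941 ± 291), Csf2 (477 ± 48.5), Areg (113 ± 3.83), Il13 (94.8 ± 7.23), Ltb (62.8 ± 8.65) and Lta (51.8 ± 4.06). The Il9 libraries at 42.3 to 53.8 overlapped those of Lta at 48.8 to 56.4 and the lowest of Ltb at 52.8, so these neighbours do not differ beyond their spread. Il4, the gene of another type 2 cytokine, came next at 34.2 ± 2.08 and did not overlap Il9.

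With TNFa, Il9 was the third, after Il5 (3541 ± 201), the gene of the main eosinophil growth factor, and Csf2 (791 ± 54.8), which encodes GM-CSF. Its 3 libraries at 225 to 239 CPM per kilobase all lay above every library of Lta (130 to 163), Areg (130 to 150), Ltb (123 to 140) and Il13 (103 to 166). Among 21681 genes of the table with an annotated length, Il9 ranked between 1593 and 2031 by this level in the PBS libraries and between 336 and 413 in the TNFa libraries.

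Il9r was the sixth of 10 receptor genes in both groups. These were genes of the common gamma chain family and the related chains Crlf2 and Il13ra1, which do not pair with the common gamma chain. It stood at 21.3 ± 1.59 CPM per kilobase with PBS and 13.7 ± 0.842 with TNFa (SD, n = 3 each). The shared chain Il2rg, which IL-9R needs to signal, stood at 399 ± 16.2 and 507 ± 51.3, and the IL-2 receptor alpha chain Il2ra at 417 ± 49.0 and 505 ± 35.1. Il2rb (110 ± 3.71 with PBS), Il4ra (31.6 ± 1.47) and the IL-7 receptor Il7r (28.2 ± 4.52) also lay above Il9r, and Crlf2, a chain of the TSLP receptor, below it at 11.0 ± 2.16. Il15ra (3.91 ± 0.506) and Il21r (1.27 ± 0.243), the receptor chains for IL-15 and IL-21, were lower still, and Il13ra1, a receptor chain for IL-13, was listed at 0 in 2 libraries. The highest Il9r library with PBS, at 22.6, was just under the lowest of Il7r, at 23.3. By the mean length of the transcripts Il9r reached 42.8 with PBS, beside 44.6 ± 7.14 for Il7r, and the pair could not be ordered. Of the 9 receptor genes listed beside Il9r, 0 passed edgeR's test over all genes, where 0.102% of all tested genes did. Among these 9, 3 had an unadjusted p under 0.05, where 8.31% of all tested genes did. DESeq2 called 0 of the 9, against 1.74% of the 12668 genes it gave an adjusted p (220). By rank among all genes Il9r lay between 3350 and 3763 with PBS and between 4552 and 4993 with TNFa.

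**Figure D2:**
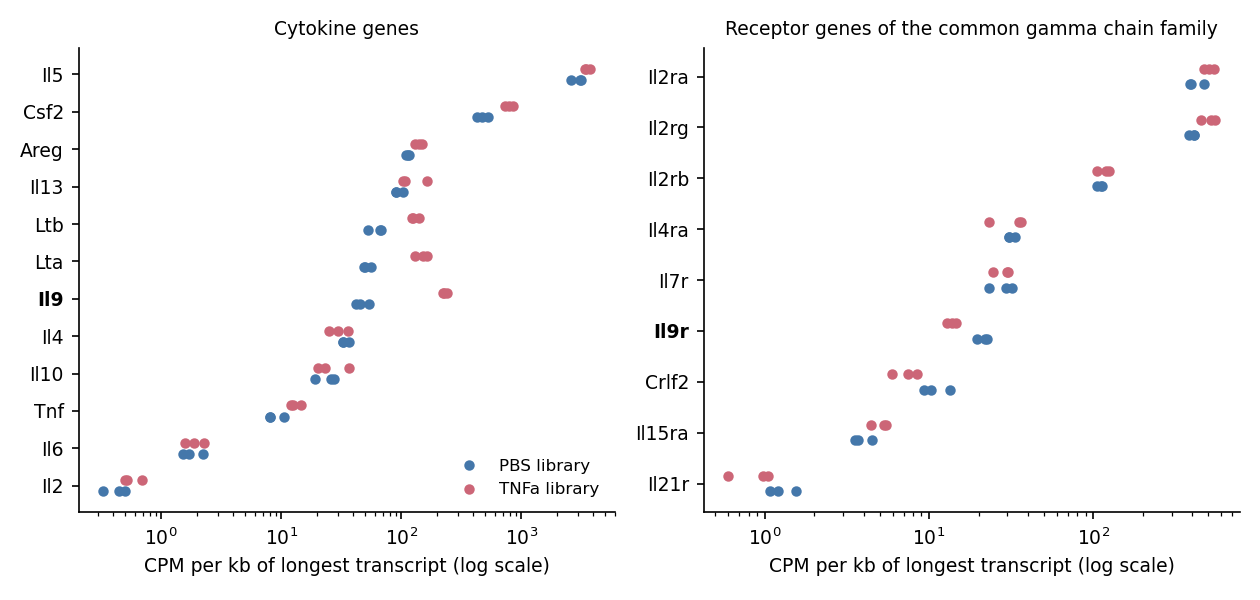
CPM per kilobase of the longest annotated transcript, on a log axis, for the tested cytokine genes (left) and the receptor genes of the common gamma chain family with the related chain Crlf2 (right), 1 point per library, sorted by the PBS mean. Il9 moves from 42.3 to 53.8 with PBS to 225 to 239 with TNFa, and Il9r from 19.6 to 22.6 to 12.8 to 14.5; Il13ra1 was listed at 0 in 2 libraries and is not drawn.

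The other cytokine genes were read against the whole table, in which 0.102% of tested genes (16) passed an adjusted p of 0.05 (edgeR, quasi-likelihood, Benjamini-Hochberg over all genes). Split by direction these were 0.0891% higher and 0.0127% lower. Leaving out 1 library at a time gave between 1 and 67 such genes, the 67 without TNFa replicate 5. Of 15 cytokine genes listed beside Il9, 11 were tested, and 2 rose: Lta and Ltb, which encode the lymphotoxins. Lta went from 71.6 ± 5.61 to 205 ± 23.6 CPM (adjusted p = 0.0022) and Ltb from 88.9 ± 12.3 to 184 ± 12.3 CPM (adjusted p = 0.032). None was called lower, and 10 of 11 had higher fitted means with TNFa, where 50.6% of all tested genes did. Higher without overlap were 7 of 11, where 6.85% of all tested genes were. This list, like the others, was chosen with earlier results of these data known, so such counts are a description only. The median log2 fold change was 0.41. Without PBS replicate 1 neither lymphotoxin gene was called, and of the 6 fits that left out a library Ltb passed in 1, the one without TNFa replicate 5, where Csf2 passed too. Il5 stood at 4520 ± 448 and 5442 ± 308 CPM (adjusted p = 0.51), Csf2 at 381 ± 38.8 and 633 ± 43.8 (adjusted p = 0.056) and Areg, the gene of the tissue repair factor amphiregulin, at 138 ± 4.65 and 170 ± 12.5 (adjusted p = 0.43). Il3, Il7, Il15 and Il21 were not tested, the first and last because the table has no row for them.

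Of the genes that carry the IL-9 signal inside the cell, none passed the test. Those reported here are Il2rg, Jak1, Jak3, Stat3, Stat5a, Stat5b, Irs1 and Irs2, of which 7 were tested and Irs1 had no row in the table. In edgeR's test 0 of 7 were called, where 0.102% of all tested genes were. DESeq2 also called 0, against 1.74% of all genes it judged. With 7 genes, counts of 0 are near those shares, so nothing is read from them. Of the 7, 1 had an unadjusted p under 0.05, where 8.31% of all tested genes did. That gene, Il2rg, was also the 1 higher without overlap, as 6.85% of all tested genes were. The median over the 7 was -0.22 (log2). Il2rg was at 683, 635 and 681 CPM with PBS and 866, 754 and 922 with TNFa (log2 fold change 0.35 ± 0.10, adjusted p = 0.38).

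The kinases and the STATs were close to level. The fitted log2 difference was -0.07 ± 0.10 for Jak1 (adjusted p = 0.90) and -0.07 ± 0.15 for Stat3 (adjusted p = 0.93). Jak3 (-0.27 ± 0.18), Stat5a (-0.22 ± 0.16), Stat5b (-0.25 ± 0.18) and Irs2 (-0.22 ± 0.13), an adaptor that links cytokine receptors to PI3 kinase, had adjusted p-values of 0.72 to 0.76. TNFa replicate 5 was the lowest of the 6 libraries for 6 of these 7 genes. Without it the values were -0.07 ± 0.08 for Jak3, -0.07 ± 0.11 for Stat5a and -0.06 ± 0.11 for Stat5b, and the median of the list was -0.06.

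Genes that IL-9 or STAT5 are known to induce did not move as one. Of 15 tested, 0 passed edgeR's test, where 0.102% of all tested genes did. Of these 15, 6 had an unadjusted p under 0.05, where 8.31% of all tested genes did. DESeq2 called 3 (1.74% of all genes it judged), Ly6a higher and both granzyme genes below lower. Fitted means with TNFa were higher for 5 and lower for 10, where 50.6% and 49.4% of all tested genes were. The median log2 fold change was -0.15. The most abundant were Il2ra (1841 ± 216 CPM with PBS, 2228 ± 155 with TNFa, adjusted p = 0.53), the stem cell antigen gene Ly6a (701 ± 59.0 and 1621 ± 561, adjusted p = 0.088) and 2 feedback inhibitors of cytokine signalling, Cish (498 ± 34.9 and 484 ± 31.2, adjusted p = 0.94) and Socs1 (522 ± 107 and 454 ± 24.0, adjusted p = 0.76). Only Ly6a of the 15 was higher without overlap, as 6.85% of all tested genes were, at 769, 660 and 675 CPM with PBS against 1197, 1410 and 2257 with TNFa. Socs3, Pim2, Gzma and Gzmb were lower without overlap, as were 8.35% of all tested genes, and are named because their values were seen.

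The granzyme genes Gzma and Gzmb encode proteases of cytotoxic granules. Gzmb was at 148, 144 and 167 CPM with PBS and 98.8, 85.4 and 78.2 with TNFa (adjusted p = 0.063). Gzma was at 63.6, 34.1 and 53.6 CPM with PBS and 11.6, 20.0 and 8.56 with TNFa (adjusted p = 0.088). Without TNFa replicate 5 both passed the test, at adjusted p-values of 0.026 for Gzmb and 0.0055 for Gzma. Bcl3, an atypical IkB protein reported as an IL-9 target in ILC2s, was at 144 ± 10.7 and 124 ± 13.4 CPM (adjusted p = 0.69; named after its values were seen).

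**Figure D3:**
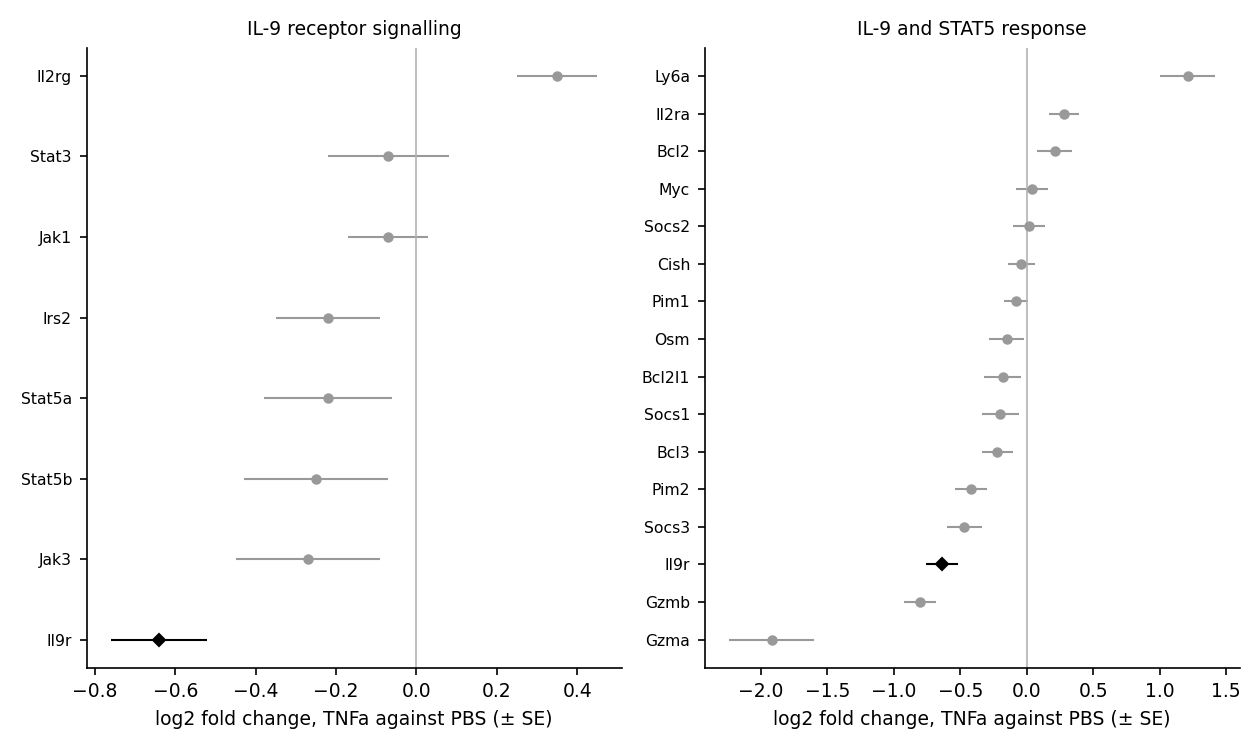
Fitted log2 fold change of TNFa against PBS with its SE for 7 tested genes of IL-9 receptor signalling (left) and the 15 genes known to respond to IL-9 or STAT5 (right), with Il9r as a black diamond. None of the grey genes passed an adjusted p of 0.05; Il9r at -0.64 lies below all 7 signalling genes and above Gzmb and Gzma.

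Among factors reported to control Il9, 1 of 29 tested genes passed edgeR's test, where 0.102% of all tested genes did. Nfkb2, whose product p100 is cut to give p52 of the NF-kB family, rose from 55.3, 74.6 and 52.1 CPM with PBS to 146, 130 and 136 with TNFa (log2 fold change 1.18 ± 0.15, adjusted p = 0.032). The other 28 did not pass, and the median log2 fold change was -0.08. Without overlap, 3 genes were higher and 5 lower, where 6.85% and 8.35% of all tested genes were. An unadjusted p under 0.05 was found for 7 of the 29, where 8.31% of all tested genes had one. DESeq2 called 4 (1.74% of all genes it judged), Nfkb2 and Relb higher and Gata3 and Nfkb1 lower. Gata3, on which ILC2s depend, was at 978 ± 71.8 and 705 ± 52.1 CPM (adjusted p = 0.20), and Ets1 at 413 ± 26.7 and 323 ± 38.8 CPM (adjusted p = 0.42). Hif1a, the oxygen-sensing factor, was at 655 ± 102 and 768 ± 154 CPM (adjusted p = 0.76), and Rbpj, the DNA-binding partner of Notch, at 313 ± 29.0 and 372 ± 38.1 (adjusted p = 0.61).

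The factors that define IL-9-producing T cells were of interest for their levels, although the rule on abundance did not select them. Spi1, which encodes PU.1, stood at 2.30 ± 1.14 CPM with PBS and 2.48 ± 0.380 with TNFa. Irf4 stood at 108 ± 20.6 and 135 ± 9.69 CPM (adjusted p = 0.62), with overlap between the groups. Batf stood at 94.0 ± 8.87 and 111 ± 1.71 CPM (adjusted p = 0.63). Of the other NF-kB subunits, Relb was at 32.8 ± 6.94 and 59.8 ± 6.70 CPM (adjusted p = 0.15) and Nfkb1 at 370 ± 18.1 and 242 ± 28.8 CPM (adjusted p = 0.11). Without TNFa replicate 5, Relb passed higher (adjusted p = 0.045) and Nfkb1 lower (adjusted p = 0.0061). Nfkb2 did not pass without PBS replicate 1, PBS replicate 3, TNFa replicate 4 or TNFa replicate 6, where 0 of 29 genes were called.

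Of 16 receptors that lie upstream of Il9, 1 passed edgeR's test, where 0.102% of all tested genes did. Icos, a costimulatory receptor, fell from 888 ± 69.0 to 517 ± 33.1 CPM (log2 fold change -0.78 ± 0.10, adjusted p = 0.036). The fitted mean was lower for 12 of the 16, as it was for 49.4% of all tested genes, and the median log2 fold change was -0.26. Without overlap, 5 were lower and 0 higher, where 8.35% and 6.85% of all tested genes were. An unadjusted p under 0.05 was found for 5 of the 16, where 8.31% of all tested genes had one. DESeq2 called 2, Icos and Il1rl1, both lower (1.74% of all genes it judged). Il1rl1, the IL-33 receptor, was at 616 ± 64.9 and 425 ± 49.8 CPM (adjusted p = 0.22). The IL-2 receptor chains Il2ra (adjusted p = 0.53) and Il2rb (462 ± 15.6 and 489 ± 40.7 CPM, adjusted p = 0.87) overlapped between groups. Icos was called in 1 of 6 fits that left out a library, the one without TNFa replicate 5. That library was the lowest of the 6 for 7 of the 16 receptors, and without it the median of the list was -0.11.

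**Figure D4:**
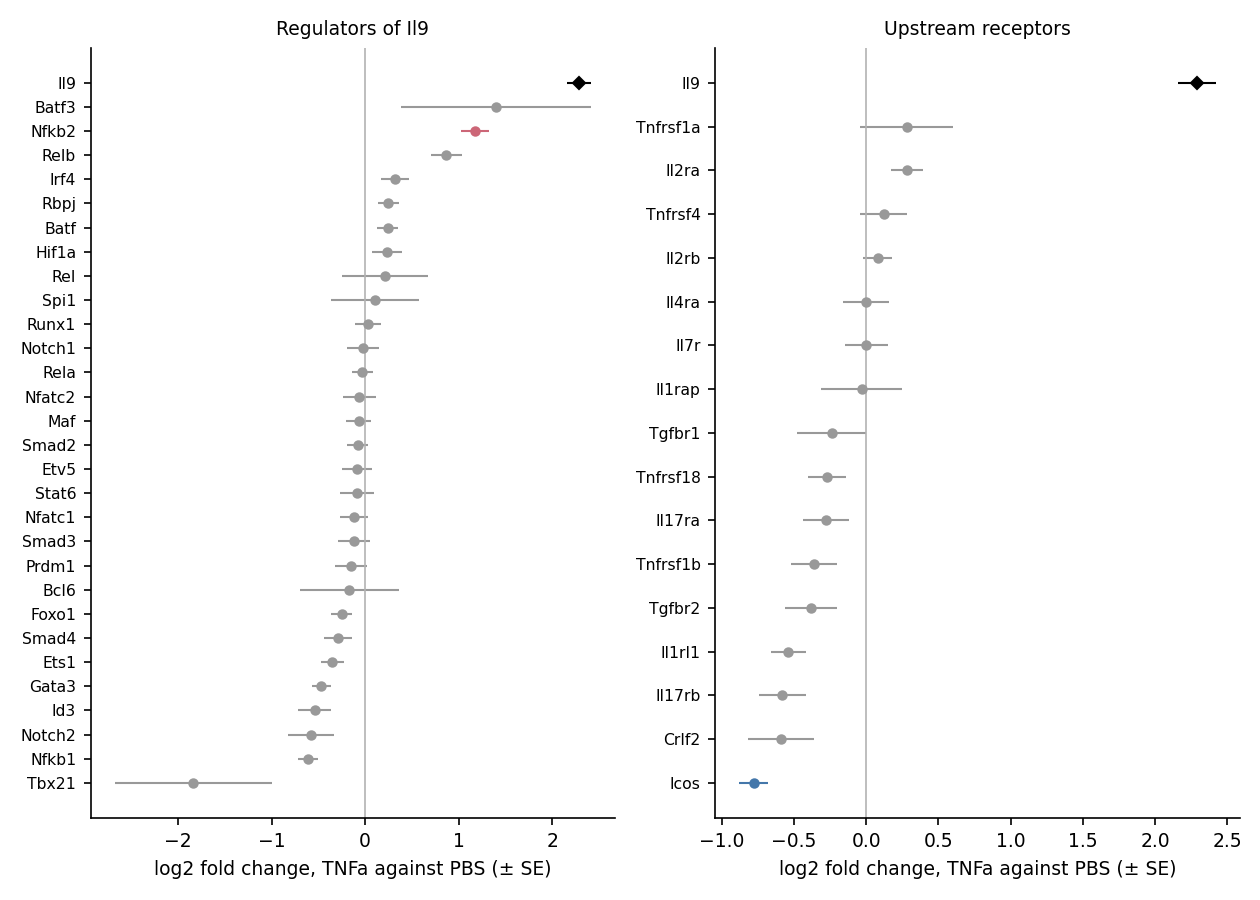
Fitted log2 fold change of TNFa against PBS with its SE for 29 factors reported to control Il9 (left) and 16 upstream receptors (right), with Il9 as a black diamond at 2.29. Nfkb2 (red, higher) and Icos (blue, lower) passed an adjusted p of 0.05 and the grey genes did not.

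None of the genes around Il9 passed the test. Of 8 genes of the table whose lower coordinate lies within 500 kb of that of Il9, 6 were tested. In edgeR's test 0 passed (0.102% of all tested genes did) and 0 had an unadjusted p under 0.05 (8.31%). DESeq2 called 0 (1.74% of all genes it judged), and 0 were without overlap, where 15.2% of all tested genes were. With 6 genes, counts of 0 are near those shares, so nothing is read from them. The most abundant were H2afy, a histone variant gene, at 392 ± 30.3 and 372 ± 44.3 CPM (log2 fold change -0.08 ± 0.12, adjusted p = 0.90), and Smad5, a signal carrier of bone morphogenetic proteins, at 11.4 ± 1.35 and 12.4 ± 0.654 CPM (0.13 ± 0.20, adjusted p = 0.90). Tifab (1.63 ± 0.927 and 1.42 ± 0.795 CPM) and the antisense gene Gm47071 (1.26 ± 0.416 and 0.835 ± 0.360) were low in every library. Slc25a48 and Gm10782 were too low to be tested.

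Around Il9r the same window held 12 genes, all tested. In edgeR's test 0 passed (0.102% of all tested genes did) and 1 had an unadjusted p under 0.05 (8.31%). DESeq2 called 0 (1.74% of all genes it judged). None of the 12 was without overlap, where 15.2% of all tested genes were. Snrnp25, a gene of the minor spliceosome whose lower coordinate lies 17.9 kb from that of Il9r, stood at 93.7 ± 10.2 and 98.9 ± 16.2 CPM (log2 fold change 0.08 ± 0.14, adjusted p = 0.92). Nprl3, a regulator of mTORC1, stood at 34.1 ± 3.09 and 35.5 ± 5.00 CPM (adjusted p = 0.95). Stk10 (211 ± 13.7 and 171 ± 41.1 CPM, adjusted p = 0.70), a kinase of lymphocytes, and Fbxw11 (70.6 ± 3.30 and 60.2 ± 19.4 CPM, adjusted p = 0.82), a subunit of a ubiquitin ligase, were farther off. The median log2 fold change of the 12 was -0.22. The alpha globin genes Hba-a1 and Hba-a2, which share this region, were at 1.44 ± 0.706 and 1.17 ± 0.344 CPM with PBS, and as near-identical copies their reads can be divided wrongly.

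**Figure D5:**
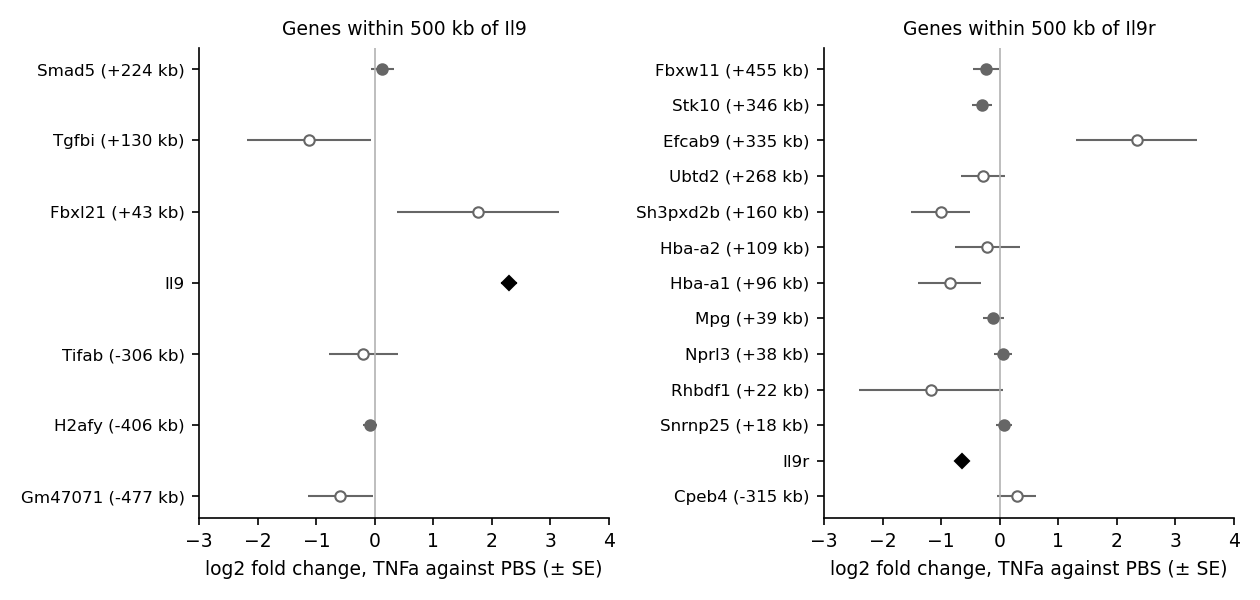
Fitted log2 fold change with its SE for the tested genes within 500 kb of Il9 (left, 6 genes) and Il9r (right, 12 genes), in chromosomal order with the distance between lower coordinates in brackets. Diamonds mark Il9 and Il9r, filled circles genes at 10 CPM or more in a group and open circles genes below that; none of the neighbours passed an adjusted p of 0.05.

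The genes whose pattern over the 6 libraries was most like that of each member were found by the root mean square difference of log2 CPM, each gene centred on its own mean, among 8750 tested genes with a mean of at least 10 CPM. For Il9 these were Lta (0.41), Mycl (0.42), Serpina3g (0.45), Il22 (0.45) and Serpina3f (0.51), against a median of 1.18 over all genes compared. Values of these genes are a description with no test, since their likeness to the members chose them. Mycl and Il22 had PBS means of 4.40 and 8.66 CPM and passed the minimum only through their TNFa libraries. Il22, the gene of a cytokine of group 3 innate lymphoid cells, was at 10.6, 7.59 and 7.79 CPM with PBS and 45.6, 21.2 and 25.7 with TNFa. For Il9r the nearest were Hmces (0.09), Ppm1m (0.09), Ccr2 (0.11), Rgl2 (0.11) and Tbc1d20 (0.11), against a median of 0.37. Ccr2, a chemokine receptor, was at 402, 370 and 435 CPM with PBS and 275, 258 and 279 with TNFa. The difference between Il9 and Il9r was 1.47, which put Il9r at place 8597 of 8749 in likeness to Il9.

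Other cells that can make IL-9 or carry its receptor were checked through their markers. The defining ILC2 markers were each lower with TNFa without overlap, as were 8.35% of all tested genes. Gata3 was at 897 to 1034 CPM with PBS and 647 to 746 with TNFa. Rora was at 238 to 246 and 217 to 235, and Il1rl1 at 575 to 691 and 367 to 454. None of the 3 passed edgeR's test, where 0.102% of all tested genes did. DESeq2 called Gata3 and Il1rl1 lower, where it called 1.74% of all genes it judged. The summed level of 15 ILC2 markers was 10240.0 to 11589 CPM with PBS and 10679 to 11797 with TNFa. That sum leans on Il5, with means of 4520 CPM with PBS and 5442 with TNFa, and on Il2ra, at 1841 and 2228. Icos, at 888 and 517, went the other way, like the 3 defining markers. All 14 mast cell and basophil markers had a row in the table, with a sum of 1373 to 1512 CPM with PBS and 1413 to 1599 with TNFa (Kit is on both lists), and their defining genes Cpa3 (110 to 143 and 120 to 129 CPM), Tpsb2 (199 to 217 and 181 to 234), Mcpt8 (18.6 to 25.1 and 17.7 to 27.3) and Ms4a2 (2.90 to 4.27 and 1.31 to 8.18) overlapped between groups. The sum of 12 T cell markers was lower with TNFa without overlap, at 472 to 503 CPM against 398 to 451. Their defining genes Cd3e (16.2 to 20.9 and 12.7 to 17.8 CPM) and Cd4 (7.02 to 11.7 and 3.44 to 8.05) overlapped between groups and are a small part of that sum.

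Among the remaining types, 8 of 9 myeloid markers had a row, with sums of 52.4 to 109 CPM with PBS and 37.1 to 66.4 with TNFa. The 10 markers of NK cells and other innate lymphocytes, which include both granzymes, summed to 193 to 236 and 132 to 168 CPM, lower with TNFa without overlap. Gzma and Gzmb alone summed to 178 to 220.4 CPM with PBS and 86.7 to 110.4 with TNFa. The sum of the other 8 markers went the opposite way, from 14.8 to 17.1 CPM with PBS to 30.6 to 57.9 with TNFa. Much of it was Il22, at 10.6, 7.59 and 7.79 CPM with PBS and 45.6, 21.2 and 25.7 with TNFa. Ncr1, the gene of an NK cell receptor, was higher without overlap at 0.823 to 1.77 and 2.17 to 3.71 CPM (adjusted p = 0.48). Not all members rose. Tbx21 had means of 1.43 and 0.390 CPM, with overlap. Klrb1c (0 to 0.665 and 0 to 0.119) and Eomes (0.102 to 0.954 and 0 to 0.356) also overlapped. Eosinophil markers summed to 5.18 to 10.5 CPM with PBS and 3.90 to 60.7 with TNFa, uneven among the TNFa libraries. Epx was at 0 in all PBS libraries and at 0 to 17.2 CPM with TNFa, and Prg2 at 0 to 2.76 and 0 to 35.5. The 6 of 7 B cell markers with a row summed to 146 to 176 and 79.4 to 204 CPM. Besides Icos, which is on the ILC2 list, no marker on any of these lists passed edgeR's test, where 0.102% of all tested genes did. The part of these cells in the Il9 and Il9r levels was not tested.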

How the data were processed

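RNA of 6 cultures was sequenced, 3 with PBS and 3 with TNFa. The deposited values are estimated counts for each gene from the authors' Partek expectation-maximization quantification, per the file headers and file name, unscaled between libraries. CASAVA 1.8.2, STAR and mm10 are named, with no role, per the submitters' processing notes. Which annotation release and gene filter were used, and whether strand counted, is not given in the sources used here. Totals were 25089415 to 32487004 counts per library.

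Rounded counts went into edgeR 4.0.16 under R 4.3.3 (filterByExpr, TMM, robust quasi-likelihood test, Benjamini-Hochberg adjustment over 15719 genes). The SE is the fitted value divided by the root of its F statistic. Transcript lengths came from GENCODE M21, and promoter windows from RefSeq. The procedure was tested on simulated data. The 2 genes, the lists and the motifs were chosen with earlier results of these data known. Genes named were every called gene and the 4 most abundant of each list, all of the receptor signalling list (1 gene of it is not reported here), and the 5 most like each member; other names are marked. Alternatives used DESeq2 1.42.0, other scaling and filters, unrounded counts, 1 library fewer and other lengths.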

Additional observations from a re-analysis of the deposited data

How the results depend on the processing

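No paired analysis was possible because the replicate numbers of the groups, 1 to 3 and 4 to 6, are not shared. The log2 fold changes of Il9 and Il9r kept their direction and stayed within the spread of the libraries under every alternative run; leaving out 1 library gave 2.22 to 2.40 for Il9 and -0.70 to -0.60 for Il9r. The Il9r level per kilobase was 42.8 with PBS and 27.4 with TNFa when the mean transcript length was used. DESeq2 called 220 genes over the table, 3 genes of the IL-9 and STAT5 response, 4 regulators and 2 upstream receptors. With no filter 3 genes were called over the table, 0 regulators, 0 upstream receptors and 1 cytokine gene, and with a filter at a mean of 5 CPM 25 genes over the table and 2 response genes. Without 1 library the calls ranged from 1 to 67 over the table, 0 to 2 for the response, 0 to 3 for regulators, 0 to 3 for cytokine genes and 0 to 1 for upstream receptors. Fits with 1 library fewer have less power by construction; the cause of the other shifts was not tested. The signalling list, the receptors listed beside Il9r and both sets of neighbours had 0 calls in every fit. Depth limits genes near 1 CPM, such as Spi1 and most neighbours of Il9, far more than Il9 or Il9r.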
